A study of Mus musculus with 40 samples.

Results

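Rod phototransduction genes encode the proteins that turn light absorbed by rod photoreceptors into an electrical signal. The genes described here are the 9 rows of a normalized count table of 54307 mouse genes whose Ensembl identifiers match Gnat1, Pde6a, Pde6b, Pde6g, Cnga1, Cngb1, Sag, Grk1 and Rcvrn. They were chosen by name, and all 9 had a row and were above 0 in all 40 libraries. RNA was sequenced from the retina and the central choroid of the same 20 mice, 5 in each of 4 conditions, killed 3 days after 6 laser burns per eye that rupture the membrane under the retina and start choroidal neovascularization (CNV). Mice carried floxed Tgfbr2, the type II receptor of TGFβ, on a C57BL/6J background. In Tgfbr2ΔEC mice 1 copy of Cdh5-CreERT2, a tamoxifen-activated recombinase under an endothelial promoter, was present as well, and control littermates had none. Every mouse, controls included, was given tamoxifen eye drops at 6 to 7 weeks of age. Each genotype was fed either a control diet (– PLX) or a diet with the CSF1R inhibitor PLX5622 (+ PLX), which removes microglia and many macrophages. The deletion is restricted to endothelium, so the libraries of whole tissue hold Tgfbr2 RNA of all other cells.

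Gnat1 encodes the rod transducin α subunit (chr9:107551673-107556911, minus strand, GRCm39). Pde6a (chr18:61353387-61422995) and Pde6b (chr5:108536243-108580263), both on the plus strand, encode the catalytic subunits of the rod phosphodiesterase, and Pde6g (chr11:120338431-120344326, minus strand) its inhibitory subunit. Cnga1 (chr5:72761039-72801618) and Cngb1 (chr8:95965672-96033213), both on the minus strand, encode the α and β subunits of the cyclic GMP-gated channel. Sag (chr1:87731402-87772880) encodes rod arrestin, Grk1 (chr8:13455081-13471951) the pigment kinase and Rcvrn (chr11:67586141-67594159) its calcium sensor recoverin, all on the plus strand. Within Cnga1, 2 genes are annotated on the same strand, a pseudogene and a long non-coding RNA, so reads could be shared between them. The other 8 have no annotated overlap on their own strand.

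In the dark, cyclic GMP holds open a cation channel of the rod outer segment. Light-activated visual pigment switches on the G protein transducin, transducin releases the inhibitory subunits of a phosphodiesterase, cyclic GMP is broken down and the channel closes. Recovery needs a kinase and arrestin, which silence the pigment, and calcium sensors that tune the kinase. Rods lie in the neural retina, behind which the retinal pigment epithelium and the choroid follow. Rods are no part of the choroid, so the level of rod genes there was read against the retina of the same mouse.

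Rod genes are known targets of the photoreceptor transcription factors CRX and NRL. The 250 bases before the transcription start were looked up in RefSeq (GRCm38.p6), where 5 of the 9 genes matched: Pde6b, Cnga1, Cngb1, Sag and Grk1. They were searched on both strands for TAATCC, a core of CRX sites, and for TGCTGA, a core of NRL sites, and no match of one overlapped a match of the other. TAATCC was in 3 of the 5 against 6.25% of 32851 RefSeq promoters of the same length, TGCTGA was in 2 of 5 against 16.1%, and Grk1 held neither. The 3 windows below are shown because their matches lie nearest to the start (Pde6b and Cngb1) or because both motifs occur (Sag). Capitals mark the matches, and in Sag the TAATCC match is on the opposite strand and reads GGATTA.
Pde6b, chr5:108388123-108388372, plus strand: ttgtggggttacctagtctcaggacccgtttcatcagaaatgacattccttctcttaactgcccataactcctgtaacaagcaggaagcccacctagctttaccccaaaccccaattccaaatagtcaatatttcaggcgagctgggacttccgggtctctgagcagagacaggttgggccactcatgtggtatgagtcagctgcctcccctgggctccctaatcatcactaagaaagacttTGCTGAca
Cngb1, chr8:95306586-95306835, minus strand: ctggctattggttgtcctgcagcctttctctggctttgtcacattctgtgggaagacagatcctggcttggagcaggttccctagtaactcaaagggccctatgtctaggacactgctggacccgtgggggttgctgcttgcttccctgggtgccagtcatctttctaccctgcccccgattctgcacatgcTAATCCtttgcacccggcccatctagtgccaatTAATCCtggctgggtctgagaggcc
Sag, chr1:87803430-87803679, plus strand: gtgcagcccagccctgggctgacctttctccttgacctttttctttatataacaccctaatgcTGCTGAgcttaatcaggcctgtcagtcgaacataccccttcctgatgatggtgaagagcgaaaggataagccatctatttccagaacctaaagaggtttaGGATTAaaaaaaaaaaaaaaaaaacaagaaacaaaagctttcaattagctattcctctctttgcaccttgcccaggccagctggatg

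Normalized counts summed to between 22256892 and 24507335 per retina library and between 24718469 and 25956180 per choroid library. The spacing of low values puts a single read at 0.745 to 1.18 normalized counts, depending on the library, so that a value is close to a number of reads. The lowest value of any of the 9 genes was 15.54, for Cnga1 in the choroid of mouse 11. Tgfbr2 did not separate the genotypes in whole tissue. Choroids held 9836 to 10849 normalized counts of it in control – PLX mice, from 8729 to 11303 in Tgfbr2ΔEC – PLX mice, from 9434 to 12801 in control + PLX mice and from 10817 to 11999 in Tgfbr2ΔEC + PLX mice. In retina it lay between 66.4 and 293 in all 4 groups. The choroid of mouse 15, a control + PLX mouse, stood apart from the other 4 of its group in all 9 rod genes, and results that rest on it are given with and without it. Mononuclear phagocyte markers were low in every + PLX retina, where the 8 markers summed to between 39.5 and 147 normalized counts, against 1221 to 3053 in – PLX retinas.

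In retina, the 9 genes together made up between 2.33% and 3.19% of all normalized counts. To compare genes with each other, levels were divided by transcript length. Gnat1 was highest with 113497 ± 12129 normalized counts per kilobase (SD, n = 20), followed by Sag with 71087 ± 10007 and Pde6g with 46544 ± 9150. These 3 kept their order in 20 of 20 retinas. Rcvrn (20386 ± 3159) and Pde6b (19495 ± 1894) did not differ beyond their spread, since Rcvrn was the higher one in only 12 of 20 retinas. Pde6a followed with 11665 ± 1186 per kilobase, below Pde6b in every retina. Cnga1 (6365 ± 773) and Grk1 (5911 ± 733) overlapped as well, with Cnga1 higher in 13 of 20 retinas. Cngb1 was lowest of the 9 at 3332 ± 632 per kilobase. The catalytic subunits thus stood below their inhibitory subunit per kilobase of transcript, and channel subunits were at the lower end of the series.

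**Figure D1:**
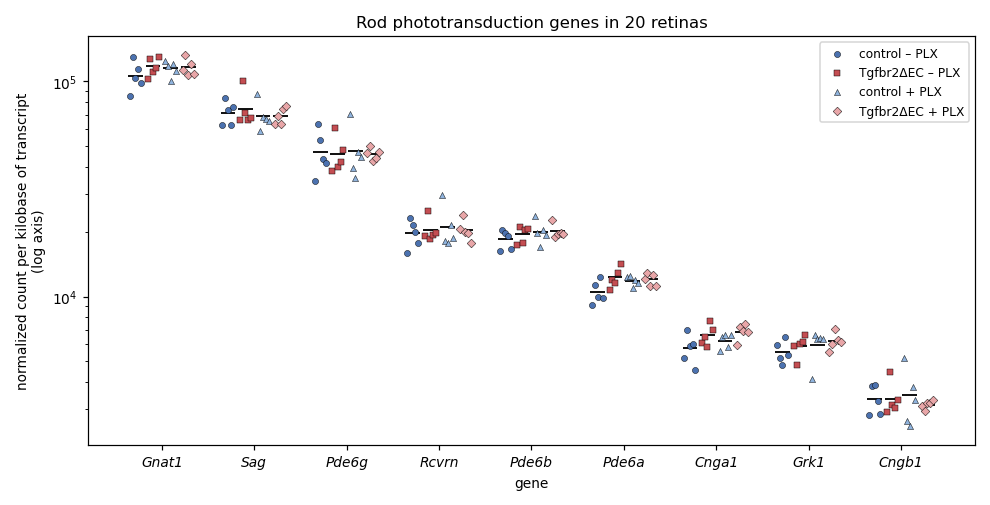
Normalized count per kilobase of transcript (log axis) of each of the 9 rod genes in 20 retinas, ordered by mean level. Points are single mice, symbols and colours the 4 conditions and short bars the group means; for every gene the 4 conditions lie on top of each other, from Gnat1 at a mean of 113497 down to Cngb1 at 3332.

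Neither the endothelial deletion nor the diet separated the retinas. Gnat1 was at 198474, 301144, 241580, 264505 and 229610 normalized counts in control – PLX retinas (mice 1 to 5). In Tgfbr2ΔEC – PLX retinas (mice 6 to 10) it was at 239287, 296225, 258161, 269603 and 302126. Both ranges overlap broadly. Gnat1 averaged 267044 ± 21885 in control + PLX and 269698 ± 24995 in Tgfbr2ΔEC + PLX retinas (SD, n = 5 each). Pde6a, the catalytic α subunit, had the largest genotype difference without PLX. It was at 42031, 51788, 45876, 56538 and 45038 in control – PLX retinas and at 49036, 55025, 53223, 59082 and 65198 in Tgfbr2ΔEC – PLX retinas. These groups overlapped too, and the difference of 0.22 on the log2(normalized count + 1) scale did not pass the test (limma, adjusted p = 0.985). With limma across 23243 genes, 0 of the 9 passed an adjusted p of 0.05 for genotype without PLX, where 0.0% of all tested genes were called. At an unadjusted p under 0.05 the count was 1 of 9 (Pde6a), against 3.26% of all genes. For genotype with PLX the counts were 0 of 9 adjusted and 0 of 9 unadjusted, against 0.0% and 2.71% of all genes. For PLX5622 in controls 0 of 9 passed, adjusted or not, against 0.736% and 5.74% of all genes, and for PLX5622 in Tgfbr2ΔEC mice again 0 of 9 both ways, against 0.516% and 3.95%. The log2 differences lay between -0.03 and 0.22, between -0.10 and 0.14, between -0.05 and 0.18 and between -0.09 and 0.08 in these 4 comparisons. In an exact two-sided permutation test of 5 against 5 mice, 0 of the 36 retina comparisons reached p under 0.05, with values from 0.0635 to 1.0. The genotype effect without PLX minus that with PLX was also not called for any of the 9 (0.0% of all genes called), and 0 of 9 had an unadjusted p under 0.05, against 2.44% of all genes.

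The 9 genes did not vary in parallel from retina to retina. Pde6g had a highest to lowest ratio of 2.03 and Cngb1 one of 2.06 over the 20 retinas, whereas Pde6b spanned 1.46 and Pde6a 1.55. Retinas of mice 11, 7, 3 and 2 were the 4 highest for Cngb1, with 31904, 27475, 24097 and 23867 normalized counts. The same 4 were the highest for Pde6g, with 63075, 54563, 47925 and 56675. They were also the 4 lowest for Grk1, with 30695, 35776, 35612 and 38682, while the other 16 lay between 39667 and 52374. The 4 retinas came from 3 groups (control – PLX, Tgfbr2ΔEC – PLX and control + PLX) and were picked out after the values had been seen. Over 36 pairs of the 9 genes, Pearson's r of the log2 levels over 20 retinas ranged from -0.74 for Sag and Grk1 to 0.90 for Pde6g and Rcvrn, with a median of 0.40 (Spearman's rho from -0.61 to 0.85). Without the 2 retinas farthest from the median of the first gene of a pair, r ranged from -0.57 to 0.85. These are descriptions of 20 libraries that share library depth and scaling, with no test.

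All 9 genes were far lower in choroid than in retina. Averaged over the 4 conditions, the difference was between -6.29 (Cnga1) and -5.62 (Cngb1) on the log2 scale, with standard errors between 0.20 and 0.31. All 9 passed the test (limma, largest adjusted p = 2.38e-20), where 41.1% of 24317 genes were called lower in choroid. The 9 genes together were between 0.00662% and 0.265% of the normalized counts of a choroid library. Bulk RNA does not tell rod cells in a choroid sample from rod RNA without cells, and neither was tested. The spread between mice was also of another size. From the lowest to the highest choroid, Gnat1 differed 40.4-fold, Grk1 64.2-fold, Cnga1 107-fold and Cngb1 15.3-fold, whereas no gene exceeded 2.06-fold in retina.

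Expressed as a percentage of the same mouse's retina, the choroid level of the 9 genes differed from mouse to mouse and, within a mouse, from gene to gene by up to 7.06 times. The median over the 9 genes was 2.44%, 0.552%, 0.271%, 2.36% and 2.47% in control – PLX mice 1 to 5. In Tgfbr2ΔEC – PLX mice 6 to 10 it was 9.32%, 3.02%, 4.56%, 9.79% and 3.67%, so every one of these lay above every control – PLX mouse. In control + PLX mice 11 to 15 it was 0.199%, 1.08%, 0.46%, 1.18% and 9.70%. Mouse 15 thus reached the level of mice 6 and 9, while its 4 group mates were at 1.18% or less. In Tgfbr2ΔEC + PLX mice 16 to 20 it was 2.04%, 0.785%, 2.05%, 1.52% and 0.783%, all below the lowest Tgfbr2ΔEC – PLX mouse. The group means were 1.62% ± 1.11, 6.07% ± 3.23, 2.52% ± 4.03 and 1.43% ± 0.631 (SD, n = 5 each, in the same order), and the control + PLX mean was 0.729% without mouse 15. These percentages were not tested and depend on how the tissues were scaled to each other, and with every library scaled to a common total the means were 1.45%, 5.67%, 2.35% and 1.32%. Because retina levels hardly varied, they follow the choroid levels.

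**Figure D2:**
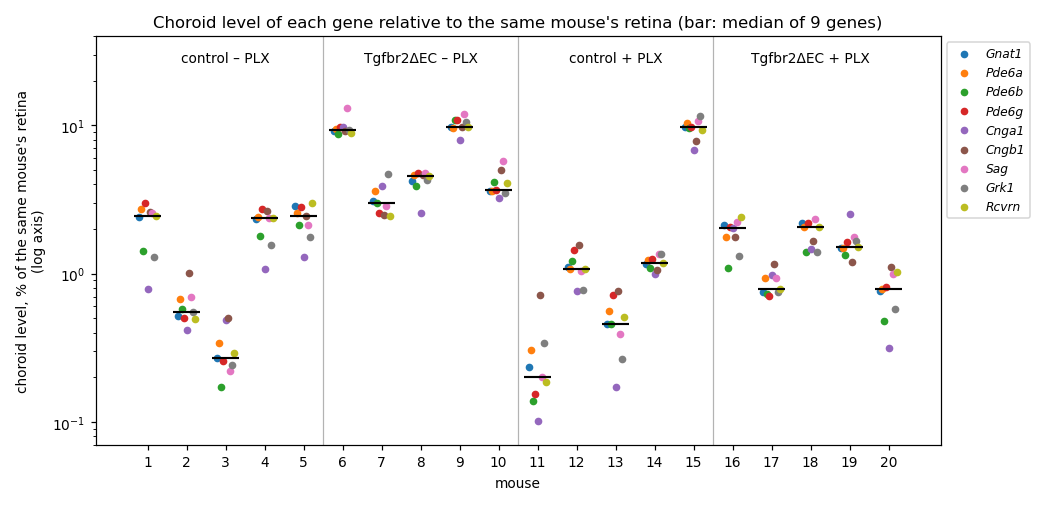
Choroid level as a percentage of the retina of the same mouse (log axis) for each of the 9 rod genes (coloured points) in mice 1 to 20, with the median of the 9 genes as a black bar. The genes of a mouse scatter around its median, which ranges from 0.199% in mouse 11 to 9.79% in mouse 9; control + PLX mouse 15 lies at 9.70%, far above the other 4 of its group.

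The spread of the 9 percentages within a mouse did not follow the level alone: the highest was 1.67 times the lowest in mouse 17, with a median of 0.785%, and 3.82 times in mouse 1, with a median of 2.44%. In mouse 15 they ranged from 6.84% (Cnga1) to 11.7% (Grk1), in mouse 6 from 8.81% (Pde6b) to 13.1% (Sag) and in mouse 9 from 7.93% (Cnga1) to 11.99% (Sag). In mouse 11, which had the lowest median percentage, they ranged from 0.102% for Cnga1 to 0.717% for Cngb1, a ratio of 7.06. Cnga1 had the lowest percentage of the 9 in 13 of 20 mice, with a median of 1.19% over all mice. Cngb1 had the highest in 7 of 20, and never fell under 0.503%, while each of the other 8 had a mouse at or under 0.305%. Pde6b was below the median of its mouse in 15 of 20 mice. Between choroids the 9 genes were closely parallel: over 36 pairs, r of the log2 levels ranged from 0.827 to 0.996 with a median of 0.978 (n = 20 choroids, Spearman's rho from 0.80 to 0.995, and r from 0.838 to 0.995 without the 2 farthest choroids of a pair). As in retina, this describes libraries with shared scaling. The level of a gene in the retina of a mouse did not track its level in the choroid of that mouse, with r between -0.44 (Pde6g) and 0.40 (Grk1) over 20 mice.

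The genotypes were compared first in choroid without PLX. All 9 genes were higher in each Tgfbr2ΔEC – PLX choroid than in any control – PLX choroid, yet no gene passed the test across all genes. Means were between 3.398-fold (Cngb1) and 8.24-fold (Cnga1) higher. Gnat1, rod transducin α, was at 4808, 1560, 654, 6193 and 6607 normalized counts in control – PLX choroids of mice 1 to 5. It was at 21950, 9185, 10815, 26397 and 10868 in Tgfbr2ΔEC – PLX choroids of mice 6 to 10. The groups did not overlap, with a difference of 2.32 ± 0.76 on the log2 scale (SE, limma adjusted p = 0.245).

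Of the phosphodiesterase subunits, Pde6a was at 1151, 348, 156, 1368 and 1162 in control – PLX and at 4605, 2001, 2468, 5706 and 2342 in Tgfbr2ΔEC – PLX choroids. Pde6b was at 650, 331, 95.8, 973 and 989 in control – PLX and at 4299, 1794, 1928, 6300 and 2421 in Tgfbr2ΔEC – PLX choroids. Pde6g, the inhibitory subunit, was at 928, 286, 123, 1067 and 1050 in control – PLX and at 3353, 1409, 1708, 4113 and 1588 in Tgfbr2ΔEC – PLX choroids. Mice 2 and 3 were low and mice 6 and 9 high for all 3 subunits. The log2 differences were 2.31 ± 0.71 for Pde6a, 2.69 ± 0.79 for Pde6b and 2.09 ± 0.74 for Pde6g (SE), with limma adjusted p-values of 0.222, 0.207 and 0.299.

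The channel subunits bounded the range of differences. Cnga1, the subunit that forms the pore, was at 112, 80.1, 79.1, 177 and 163 in control – PLX and at 1637, 694, 407, 1666 and 622 in Tgfbr2ΔEC – PLX choroids. Cngb1, which modulates the channel, was at 457, 242, 121, 534 and 432 in control – PLX and at 1652, 684, 891, 1815 and 1026 in Tgfbr2ΔEC – PLX choroids. Cnga1 had the largest difference, 2.89 ± 0.82, and Cngb1 the smallest, 1.85 ± 0.51 (SE, log2 scale), with limma adjusted p-values of 0.197 and 0.194.

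The genes of recovery followed the same mice. Sag, rod arrestin, was at 2754, 996, 279, 2544 and 2748 in control – PLX and at 14868, 4934, 5865, 13623 and 6708 in Tgfbr2ΔEC – PLX choroids. Grk1, the kinase, was at 567, 214, 85.8, 751 and 698 in control – PLX and at 4067, 1677, 1912, 4859 and 1727 in Tgfbr2ΔEC – PLX choroids. Rcvrn, recoverin, was at 407, 121, 65.9, 497 and 560 in control – PLX and at 1767, 642, 887, 1976 and 850 in Tgfbr2ΔEC – PLX choroids. Mouse 3 was the lowest control – PLX choroid for all 3 genes. The log2 differences were 2.57 ± 0.76, 2.85 ± 0.81 and 2.17 ± 0.72 (SE), with limma adjusted p-values of 0.208, 0.197 and 0.256.

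Thus 0 of 9 genes passed limma's adjusted p of 0.05, in a comparison where 0.00423% of 23619 genes (1 gene) were called. At an unadjusted p under 0.05 the count was 9 of 9, against 9.25% of all genes. The groups did not overlap in 9 of 9, against 2.38% of all genes whose Tgfbr2ΔEC – PLX choroids all lay above the controls. The exact two-sided permutation test gave p = 0.00794 for each of the 9, which is the smallest value that 5 against 5 mice allow. These p-values are not adjusted and were among 72 such tests. The 9 genes moved with the same libraries and are not independent of each other. The limma call depended on which mice were in the fit: without mouse 15, which is in neither group, 8 of 9 passed (all but Pde6g) and 411 of all genes were called, 1.74% of those tested. In the 10 mice alone, only Cnga1 passed (limma adjusted p = 0.0182), where 201 of all genes were called, 0.851% of those tested. Among mice with the Y-linked Ddx3y above Xist, the median percentages of retina were 0.271% to 2.44% in 3 control – PLX and 9.32% to 9.79% in 2 Tgfbr2ΔEC – PLX mice. Among those with Xist above Ddx3y they were 2.36% to 2.47% in 2 and 3.02% to 4.56% in 3 mice. No test was made within these sets of 2 or 3 mice.

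**Figure D3:**
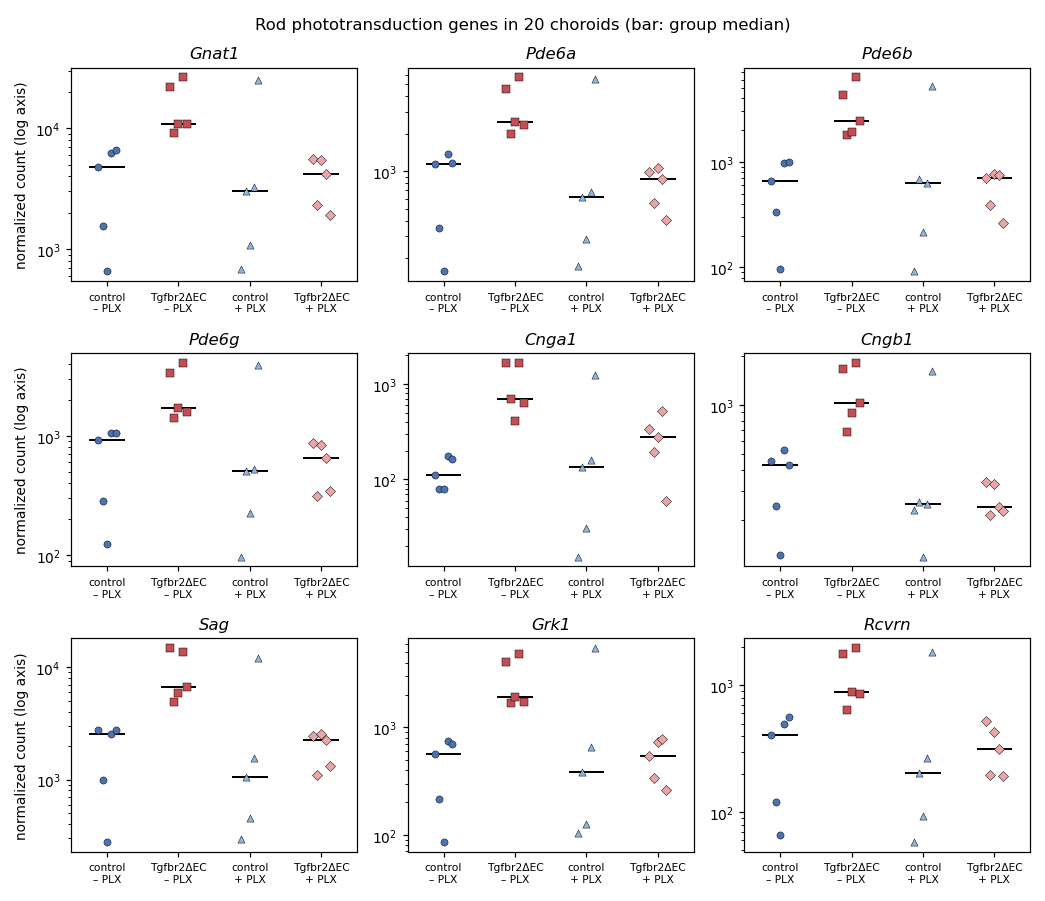
Normalized counts (log axis) of each of the 9 rod genes in 20 choroids by condition, with 5 mice per group as points and the group median as a bar. In every panel the 5 Tgfbr2ΔEC – PLX choroids lie above the 5 control – PLX choroids, and a single control + PLX choroid, that of mouse 15, lies at their level.

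The genotypes were not separated with PLX5622. Gnat1 was at 682, 3010, 1073, 3251 and 25145 in control + PLX choroids of mice 11 to 15 and at 5602, 2325, 5414, 4166 and 1911 in Tgfbr2ΔEC + PLX choroids of mice 16 to 20. Cnga1 was at 15.54, 136, 31.03, 160 and 1240 in control + PLX and at 334, 193, 276, 516 and 59.4 in Tgfbr2ΔEC + PLX choroids. Sag was at 299, 1052, 459, 1561 and 12051 in control + PLX and at 2439, 1108, 2524, 2266 and 1319 in Tgfbr2ΔEC + PLX choroids. For each of the 3 genes mouse 15 held the highest of these 10 values, and the groups overlapped. The log2 differences of the 9 genes lay between -0.22 (Cngb1) and 1.05 (Cnga1), with standard errors from 0.51 to 0.82. Of the 9 genes, 0 passed (limma, all adjusted p = 1.0), where 0.00423% of all genes were called, 0 of 9 had an unadjusted p under 0.05, against 3.76% of all genes, and the exact permutation test gave values from 0.405 to 1.0. On the log2 scale 7 of 9 genes were higher in Tgfbr2ΔEC + PLX, with a median difference of 0.22, whereas on the linear scale the means of Tgfbr2ΔEC + PLX were between 0.393 (Grk1) and 0.87 (Cnga1) times those of control + PLX. Without mouse 15 these ratios of means were between 1.26 (Cngb1) and 3.21 (Cnga1). Without mouse 15 the log2 differences were between 0.37 (Cngb1) and 1.94 (Cnga1), with a lowest adjusted p of 0.989.

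Between diets in control mice, 0 of the 9 genes passed (limma adjusted p from 0.909 to 0.994, 0 of 9 at an unadjusted p under 0.05, exact permutation p from 0.825 to 0.984), against 3.75% of all genes called and 13.8% at an unadjusted p under 0.05. Differences were between -0.20 (Sag) and 0.34 (Grk1) on the log2 scale. The groups overlapped for all 9. Without mouse 15 the differences were all below 0, between -1.02 (Sag) and -0.56 (Grk1), with a lowest adjusted p of 0.538 (limma, Sag).

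In Tgfbr2ΔEC mice all 9 genes were lower in + PLX than in – PLX choroids, and Cngb1 passed the test. Cngb1 was at 1652, 684, 891, 1815 and 1026 without PLX5622 and at 337, 213, 331, 238 and 227 with it. No value of one group reached the other, and Cngb1 was lower by 2.10 ± 0.51 on the log2 scale (SE, limma adjusted p = 0.0202). It passed in 26 of 29 alternative analyses, and not without mouse 6, 9 or 20. The other 8 genes had differences between -2.49 (Pde6b) and -1.85 (Rcvrn), with limma adjusted p-values from 0.087 to 0.232. Pde6b was at 4299, 1794, 1928, 6300 and 2421 without and at 696, 386, 764, 744 and 261 with PLX5622. Grk1 was at 4067, 1677, 1912, 4859 and 1727 without and at 542, 335, 738, 778 and 264 with it. Neither pair of groups overlapped. Cnga1 was the exception, since its + PLX value in mouse 19, 516, lay above the – PLX value in mouse 8, 407.

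The call count of 1 of 9 stood against 3.5% of all genes called lower, and 9 of 9 had an unadjusted p under 0.05 against 10.3% of all genes that were lower at that level. The groups did not overlap in 8 of 9, against 5.16% of all genes with all + PLX choroids below all – PLX choroids. The exact permutation p was 0.00794 for these 8 and 0.0159 for Cnga1. The number called again depended on the mice in the fit, with 8 of 9 in the 10 mice compared, 7 of 9 without mouse 15, 2 of 9 without mouse 11 and 0 of 9 without mouse 6, 9 or 20. Of all genes, in either direction, 5.69%, 5.96%, 4.26% and 2.76% to 2.82% were called in these fits, against 4.06% in the fit of all 20 mice. This comparison and the genotype comparison without PLX share the Tgfbr2ΔEC – PLX choroids.

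**Figure D4:**
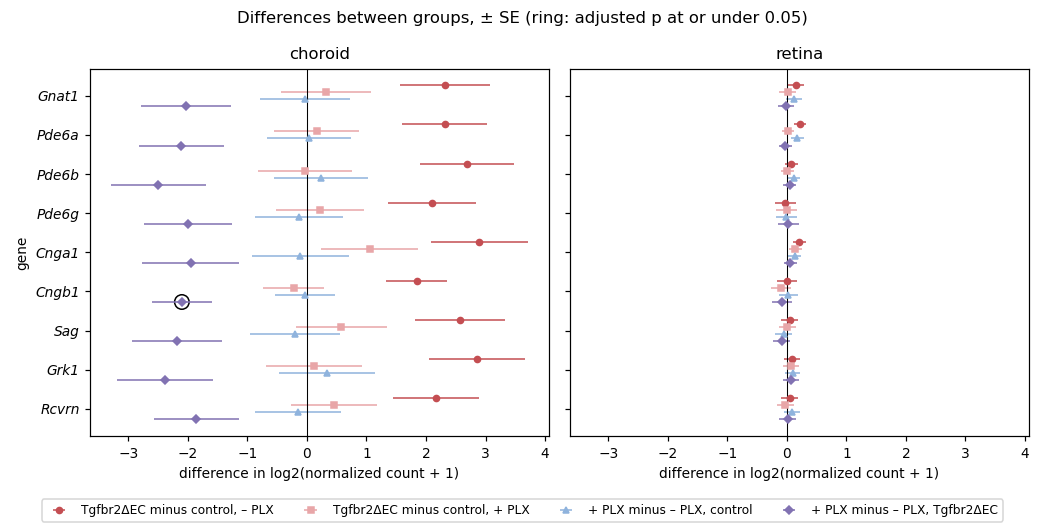
Differences between groups in log2(normalized count + 1) for each of the 9 rod genes in choroid (left) and retina (right), with bars of ± 1 SE from limma; a ring marks an adjusted p at or under 0.05. In choroid the genotype difference without PLX lies between 1.85 and 2.89 and the PLX5622 difference in Tgfbr2ΔEC mice between -2.49 and -1.85, with a ring on Cngb1 only, while all retina differences lie between -0.10 and 0.22.

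Whether the genotype effect differed between the diets was tested directly. The effect without PLX minus that with PLX was between 1.71 (Rcvrn) and 2.73 (Grk1) on the log2 scale, with standard errors from 0.72 to 1.15. It was called for 0 of 9 genes (limma adjusted p from 0.519 to 0.908), with 0.0% of all genes called. At an unadjusted p under 0.05 it was 4 of 9 (Pde6a, Pde6b, Cngb1 and Grk1), against 6.57% of all genes. Without mouse 15 the same difference was between 0.95 (Rcvrn) and 1.91 (Pde6b), with 0 of 9 called and a lowest adjusted p of 0.65 (limma, Cngb1). Whether it differed between tissues was tested as well. Without PLX the genotype effect in choroid minus that in retina was between 1.84 (Cngb1) and 2.76 (Grk1), with 0 of 9 called (limma adjusted p from 0.295 to 0.472) against 0.00411% of all genes. At an unadjusted p under 0.05 the count was 9 of 9, against 6.32% of all genes. Without mouse 15, 5 of 9 were called, against 1.25% of all genes. With PLX the difference was between -0.13 and 0.91, with 0 of 9 called against 0.0% of all genes, and 0 of 9 against 2.72% at an unadjusted p under 0.05. Without mouse 15 it was between 0.48 (Cngb1) and 1.77 (Cnga1), again with 0 of 9 called.

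The other genes of the rod cascade and outer segment were looked at as a list of 24, from the transducin β and γ subunits and guanylate cyclases to the disc proteins and rod transcription factors. In choroid without PLX, 24 of 24 were higher in Tgfbr2ΔEC mice, with a median difference of 2.16 on the log2 scale, beside 2.32 for the 9 genes and 0.01 for all tested genes. None of the 24 passed (limma, lowest adjusted p = 0.168), against 0.00423% of all genes called, and 21 of 24 had an unadjusted p under 0.05, against 9.25%. The 2 largest differences were those of Rdh8, a retinol dehydrogenase of photoreceptors (3.10 ± 1.05 SE), and Prph2, the disc rim protein peripherin 2 (2.96 ± 0.86). The 2 smallest were those of Slc24a1, a sodium, calcium and potassium exchanger (0.15 ± 0.17), and Pde6d, a carrier of prenylated proteins (0.20 ± 0.09). With PLX5622 in Tgfbr2ΔEC mice, 24 of 24 were lower and 20 of 24 had an unadjusted p under 0.05, against 10.3% of all genes that were lower at that level. Of the 24, 4 passed the test, against 3.5% of all genes called lower. They were the guanylate cyclase Gucy2e, the retinol dehydrogenase Rdh12, the disc protein Rom1 and the lipid-binding Unc119. Their levels were lower by 1.98, 2.08, 0.92 and 0.94 on the log2 scale (limma adjusted p = 0.0274, 0.0328, 0.0477 and 0.0203). In retina none of the 24 was called for genotype (0.0% of all genes without and with PLX), for PLX5622 in controls (0.736%) or for PLX5622 in Tgfbr2ΔEC mice (0.516%). An unadjusted p under 0.05 was reached by 1 of 24, for PLX5622 in controls, against 5.74% of all genes.

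Markers of other neurons of the retina were read in the same way. The median percentage of retina over 10 cone genes was 4.16% to 11.4% in Tgfbr2ΔEC – PLX mice and 0.969% to 3.59% in control – PLX mice. Over 8 bipolar cell genes it was 1.59% to 9.14% against 0.394% to 1.63%, over 7 amacrine and horizontal cell genes 3.44% to 9.59% against 0.236% to 1.70%, and over 7 ganglion cell genes 2.19% to 8.66% against 0.587% to 2.43%. In the choroid of mouse 15 the 4 lists stood at 10.8%, 11.2%, 15.6% and 11.6%, beside 9.70% for the rod genes. As summed levels, the lists of inner neurons differed less between these groups. The bipolar list summed to 32.96% to 43.6% of retina in Tgfbr2ΔEC – PLX and 31.8% to 37.7% in control – PLX mice, the amacrine and horizontal list to 16.8% to 22.7% against 14.9% to 23.1% and the ganglion list to 9.07% to 19.7% against 7.18% to 12.8%. Each of these 3 lists holds a gene at 50.3% of retina or more in every choroid. The cone list summed to 3.97% to 16.7% against 1.88% to 4.34%. In mouse 15 the sums were 10.9% for cone, 33.3% for bipolar, 26.1% for amacrine and horizontal and 18.8% for ganglion cell genes, beside 9.93% for the 9 rod genes. None of the genes of these 4 lists was called for genotype without PLX. With PLX5622 in Tgfbr2ΔEC mice, where Cngb1 was called, 10 of 10 cone genes were lower in choroid and 3 were called (limma), 8 of 8 bipolar genes were lower and 2 called, 6 of 7 amacrine and horizontal genes were lower and 1 called, and 6 of 7 ganglion cell genes were lower and 1 called, against 3.5% of all genes called lower. Their median log2 differences were -1.91, -2.85, -1.71 and -2.24, beside -2.10 for the 9 rod genes. For PLX5622 in controls the medians were -0.06, -0.18, 0.73 and 0.54, beside -0.03. There 1 cone gene was called lower, and 1 amacrine and horizontal and 1 ganglion cell gene higher, against 3.75% of all genes called in either direction. For genotype with PLX the medians were -0.07, -0.12, -0.49 and -0.32, beside 0.22, with 0 called against 0.00423% of all genes. Across the 20 mice, the log2 median percentage of a list and that of the 9 rod genes had r = 0.99 for the 24 other rod genes, 0.95 for cone, 0.88 for bipolar, 0.73 for amacrine and horizontal and 0.86 for ganglion cell genes (Spearman's rho 0.99, 0.94, 0.85, 0.74 and 0.87, and r 0.98, 0.96, 0.86, 0.73 and 0.89 without the 2 farthest mice). The points share libraries and scaling, and no test was made.

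**Figure D5:**
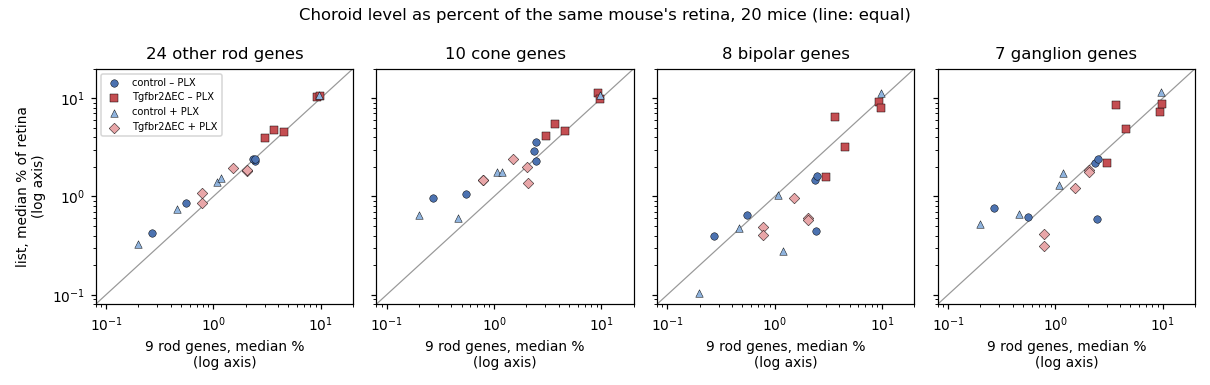
Median percentage of the same mouse's retina in choroid for 24 other rod genes, 10 cone, 8 bipolar and 7 ganglion cell genes (vertical, log axis) against that of the 9 rod genes (horizontal, log axis), 1 point per mouse, with a grey line of equality. Points of all 4 conditions rise from left to right, and mice 6, 9 and 15 lie at the right end of each panel. The ratio of a list to the 9 rod genes ran from 0.888 to 1.65 for other rod genes and from 0.663 to 3.58 for cone genes. It ran from 0.183 to 1.77 for bipolar and from 0.241 to 2.815 for ganglion cell genes. The amacrine and horizontal list is not shown.

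Markers of the choroid's own cells did not separate the same groups. The 6 endothelial markers summed to between 22974 and 25616 normalized counts in Tgfbr2ΔEC – PLX and between 20884 and 23304 in control – PLX choroids, and the 5 pigment cell markers to between 143219 and 190426 against 136630 to 176486. The 8 markers of the retinal pigment epithelium summed to between 146425 and 272866 against 215114 to 295378. The 8 phagocyte markers summed to between 23608 and 28355 against 25186 to 30319 in these choroids, and to between 6661 and 8522 in all + PLX choroids. The 6 Müller glia markers are expressed in choroid too, with sums from 52498 to 94215 there and from 61214 to 89769 in retina. Gene by gene they differed between the tissues, from -4.08 to 1.59 on the log2 scale (choroid minus retina, median -1.13). Of the 6, 5 were called lower in choroid and 1 higher (limma), with 41.1% of all genes called lower and 40.8% higher. No marker of any of these lists was at 0 in a whole group, and none was called for genotype without PLX, where 0.00423% of all genes were. With PLX5622 in Tgfbr2ΔEC mice, 7 of 8 phagocyte markers were called lower in choroid (limma), with 3.5% of all genes called lower. Of 6 Müller glia markers 1 was called, the potassium channel gene Kcnj10, which was lower by 0.86 on the log2 scale (limma adjusted p = 0.0134). None of the 6 endothelial, 5 pigment cell and 8 pigment epithelium markers was called. Higher with PLX5622 were 6 of 6, 5 of 5 and 7 of 8 of them. An unadjusted p under 0.05 was reached by 1 of 6, 1 of 5 and 3 of 8, against 15.4% of all genes in either direction. The part of retinal cells or retinal RNA in the choroid samples in the results above was not tested.

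Outside all lists, the 5 genes whose choroid levels were most like the mean log2 level of the 9 rod genes were Slc17a7 (r = 0.996), Rbp3 (0.991), Neurod1 (0.989), Rp1l1 (0.988) and Cdk5r2 (0.985), ranked over 20 choroids among 17499 genes with a mean of at least 10 normalized counts. Slc17a7 encodes a vesicular glutamate transporter and Rbp3 the retinoid-binding protein of the space between photoreceptors and pigment epithelium. Their choroid means were 2.93%, 2.98%, 2.90%, 2.56% and 2.57% of their retina means, in that order. Of the 17499 genes, 40 reached r of 0.95 or more, and all 40 were on average more abundant in retina, which held for 45.5% of all genes compared. For the 9 rod genes the mean over mice of the median percentage was 2.91% ± 3.11 (SD, n = 20).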

How the data were processed

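RNA from 20 retinas and 20 choroids was sequenced as single reads from stranded, poly(A)-selected libraries. Per the submitters' processing notes and the study's methods, the authors checked reads with FastQC (0.11.5), quantified transcripts with Salmon (1.10.1) on GRCm39, summed them per gene and normalized them with DESeq2 (1.36.0). The deposited values are this normalized count signal, with both tissues in 1 table. Median-of-ratios size factors recomputed from it were 1.0082 in each of the 40 libraries over both tissues (15800 genes), and 0.9831 to 1.0359 within single tissues, so the table was scaled over both tissues, whereas the study's methods describe the tissues as analysed apart. Only between 49.9% and 77.9% of values under 6 per library lay within 0.1 of a whole multiple of 1 read, and no count test was run for that reason.

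Of 54307 identifiers, 53700 matched the GENCODE annotation of GRCm39. Log2(value + 1) was fitted with limma (3.58.1, R 4.3.3), 1 fit per tissue with 4 groups and 1 over both tissues, on genes with a mean of at least 1, with Benjamini-Hochberg adjustment over all of them. Calls used an adjusted p of 0.05. Single genes were also compared with exact two-sided permutation tests in Python (3.11.15). Fits were tested on simulated data. The authors' covariates, sex and an estimated neuronal share, were not used. A mouse number in the library names pairs retina and choroid, and the sex-linked genes agreed between both tissues in 20 of 20 mice.

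The named genes were all 9 rod genes, the 2 lowest and 2 highest of the 24 other rod genes, those of the 24 that were called and the 5 most alike genes. The 9 genes and all lists were chosen with earlier results of these data known. Alternatives were other pseudocounts, filters, scalings, a robust variance, a sex score, the mouse as a block, fewer mice and leaving out each mouse. Each library is 1 mouse.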

Additional observations from a re-analysis of the deposited data

Results flagged for a closer look

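In each group of 5 libraries, the highest and the lowest value of each rod gene were compared with the nearest other value, and the gap was divided by the range of the group. A ratio above 0.71 was taken as a library far from the others. Of 72 such groups, 14 held one. Chance would give about 3.6 if the groups were independent of each other, which they are not. The rod genes were read in the same libraries, and in choroid their log2 levels had r from 0.827 to 0.996 between pairs. The ratios were also taken on normalized counts without logs. The 3.6 therefore cannot show whether 14 is more than chance.

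Of the groups with a library far from the others, 9 were the 9 rod genes in 1 choroid library, that of control + PLX mouse 15. The ratios were 0.895 for Gnat1, 0.905 for Pde6a, 0.886 for Pde6b, 0.888 for Pde6g, 0.882 for Cnga1, 0.908 for Cngb1, 0.893 for Sag, 0.899 for Grk1 and 0.883 for Rcvrn. The retina of the same mouse was not far from its group in any of the 9.

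The other 5 were in retina. In Tgfbr2ΔEC – PLX retinas, mouse 7 was high for Cngb1 (ratio 0.754, 27475 normalized counts), Sag (0.841, 173073) and Rcvrn (0.81, 26228). In control + PLX retinas, mouse 11 was low for Grk1 (0.891, 30695). In Tgfbr2ΔEC + PLX retinas, mouse 16 was high for Pde6b (0.747, 63682).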

How the results depend on the processing

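The value compared here is the number of the 9 rod genes called in each comparison. In the 10 mice of a comparison alone, it was 1 for genotype without PLX in choroid (0 in the fit of all 20) and 8 for PLX5622 in Tgfbr2ΔEC choroids (1 in the fit of all 20). Leaving out 1 mouse at a time gave 0 to 8 for genotype without PLX, 0 to 7 for PLX5622 in Tgfbr2ΔEC mice and 0 to 5 for the genotype effect without PLX in choroid minus that in retina. The high ends all came without mouse 15, and the 0 for PLX5622 in Tgfbr2ΔEC mice without mouse 6, 9 or 20. Of all genes, 1 was called for genotype without PLX in choroid, 201 in the 10 mice alone and 411 without mouse 15. For PLX5622 in Tgfbr2ΔEC mice the counts of all genes were 958, 1343 and 1405 in the same order, and for the genotype effect in choroid minus retina 303 without mouse 15 against 1. Mouse 15 is in no group of these comparisons. Leaving it out keeps their differences as they are and changes the spread pooled over all groups of a fit. It was picked out by the values of the 9 genes themselves, and what set it apart was not tested. Other pseudocounts, filters, scalings, the robust variance and the sex score left every count of the 9 genes as it was, and with the mouse as a replicate block the counts were 9, 0 and 0, as without it. No called difference changed sign. For single genes, 28 of 3348 alternative fits gained a call and 3 lost one. Scaling to a common total moved the median of all genes between tissues to -0.12 (log2). The control + PLX mean percentage of retina ranged from 0.729% to 3.10% with 1 mouse left out. The depth in reads is known only from the spacing of values. Cnga1 had the lowest values in choroid, down to 15.54 normalized counts, and so the largest counting error.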
